A study of Mus musculus with 4 samples.

Results

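The GTPases of immunity-associated proteins (GIMAP) were described in single cells freshly isolated from mouse brain blood vessels. The members were chosen by symbol, namely the 8 genes Gimap1, Gimap3, Gimap4, Gimap5, Gimap6, Gimap7, Gimap8 and Gimap9 of the 31053 genes counted, and no other symbol that starts with Gimap was counted. The family was picked because earlier results of these data had shown its levels across cell classes and its difference between conditions, so both are given here as a description of these libraries and not as independent evidence. Male wild-type C57BL/6 mice of 12 to 14 weeks had either 14 days of chronic social defeat (CSD), with daily attacks by an aggressive CD-1 male whose cage they shared behind a divider, or stayed in a home cage (HC), beside a CD-1 mouse on the other side of a partition. Vascular cells were enriched with microbeads against CD31, an endothelial surface protein, from perfused brains without cerebellum, striatum, brainstem and olfactory bulbs. Each of the 4 libraries (CSD 1, CSD 2, HC 1 and HC 2) pooled 4 mice, so each condition had 2 libraries, and the spread between mice inside a pool was not measured.

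The family encodes GTP-binding proteins that share an AIG1-type domain and sit together in 1 gene cluster. In lymphocytes they are known for supporting the development and survival of T and B cells, and most act at membranes of the endolysosomal, Golgi or mitochondrial compartments. Their transcripts also occur in endothelial cells, where their role is less well known.

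The members lay in a row on chromosome 6 of the GRCm38 build, over 123618 bases from the start of Gimap8 at 48647234 to the end of Gimap3 at 48770851 (GENCODE vM21 gene bodies). Gimap8, Gimap9, Gimap4, Gimap7, Gimap1 and Gimap5 are transcribed from the plus strand, and Gimap6 and Gimap3 from the minus strand. The annotation holds a readthrough gene, Gm28053, across Gimap7, Gimap1 and Gimap5 on their strand. Its exons shared 3.48% of the exonic bases of Gimap7, 6.44% of Gimap1 and 3.69% of Gimap5, and none of the last 500 bases of each, where these libraries are read. It held 1 UMI in endothelial cells and 0 in T cells. The 250 bases before the start of 5 members are shown (RefSeq, GRCm38.p6), 3 that were high in both endothelial and T cells (Gimap6, Gimap1 and Gimap5) and 2 that were close to restricted to lymphocytes (Gimap3 and Gimap7). Capitals mark GGAAGT, a core of sites for ETS factors, searched on both strands. The windows are chr6:48708245-48708494 on the minus strand, chr6:48738797-48739046 on the plus strand, chr6:48745947-48746196 on the plus strand, chr6:48770852-48771101 on the minus strand and chr6:48718371-48718620 on the plus strand.
Gimap6: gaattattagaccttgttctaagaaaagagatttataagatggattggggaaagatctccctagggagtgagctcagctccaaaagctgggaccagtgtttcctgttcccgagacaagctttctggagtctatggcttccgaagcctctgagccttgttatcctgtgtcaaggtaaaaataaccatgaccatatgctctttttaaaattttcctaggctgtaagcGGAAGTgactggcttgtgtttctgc
Gimap1: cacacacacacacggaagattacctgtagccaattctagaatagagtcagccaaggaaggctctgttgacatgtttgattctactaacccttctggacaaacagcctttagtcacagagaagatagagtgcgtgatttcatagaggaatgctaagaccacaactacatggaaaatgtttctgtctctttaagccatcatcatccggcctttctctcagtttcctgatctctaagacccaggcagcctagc
Gimap5: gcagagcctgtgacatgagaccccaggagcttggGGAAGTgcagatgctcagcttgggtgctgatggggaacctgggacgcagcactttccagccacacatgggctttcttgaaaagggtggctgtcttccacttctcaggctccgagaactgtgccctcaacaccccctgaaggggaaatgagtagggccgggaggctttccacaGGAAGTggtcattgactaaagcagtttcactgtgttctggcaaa
Gimap3: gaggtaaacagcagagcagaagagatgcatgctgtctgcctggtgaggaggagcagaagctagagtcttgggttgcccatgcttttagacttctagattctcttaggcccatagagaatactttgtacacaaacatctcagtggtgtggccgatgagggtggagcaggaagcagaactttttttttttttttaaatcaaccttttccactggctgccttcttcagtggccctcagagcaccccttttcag
Gimap7: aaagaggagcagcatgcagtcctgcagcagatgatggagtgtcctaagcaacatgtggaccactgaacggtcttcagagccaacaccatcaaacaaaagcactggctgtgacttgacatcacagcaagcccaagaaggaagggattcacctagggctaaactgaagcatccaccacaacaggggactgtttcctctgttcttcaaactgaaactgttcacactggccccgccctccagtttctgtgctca

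All 8 members matched a RefSeq promoter, and Gimap8 had 2 starts, which gave 9 windows. GGAAGT occurred in 2 of the 9 windows, those of Gimap6 (1 match, 25 bases before the start) and Gimap5 (2 matches), and in 19.7% of all 32851 promoter windows of this length. TGTGGT (RUNX) occurred in 3 of the 9 windows and 14.0% of all, and CCACCC (KLF) in 5 and 28.1%. AGAACA (the core of a glucocorticoid receptor site) occurred in 4 of the 9 windows and 16.1% of all. TTCNNNGAA (STAT) was found in 2 windows and 7.02% of all, while TGANTCA (AP-1, 6.75% of all) was found in none of the members' windows. All 6 motifs were searched on both strands, and the matches describe letters, not bound sites. No motif separated the windows of the 2 lymphocyte members from those of the other 3 shown.

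Of 14415 cells that passed the filters, 5007 were gated as endothelial cells by their markers, 102 as T cells and 4648 as microglia. Endothelial cells were divided into 4016 capillary, 291 arterial, 112 venous and 37 fenestrated cells, and the remaining endothelial cells stayed without a segment. The classes were gated on the markers summed here, so these sums describe the gates and are no separate check of the classes. The 12 endothelial markers summed to 23710 to 28840 CPM (UMIs divided by the class total of the library, times 1000000) in endothelial libraries and to 847 to 1848 CPM in T cells. The 13 T cell markers summed to 6078 to 8126 CPM in T cells and to 1.49 to 6.93 CPM in endothelial cells, where Cd3d, Cd3e, Cd3g and Il7r were at 0 UMIs in all 4 libraries. Within T cells, Cd8b1 stood at 506 CPM and Cd4 at 25.3 CPM over all libraries. No GIMAP gene was used in a gate. The libraries held 27297599 to 30361474 UMIs each, and pairs of libraries shared between 0 and 9 cell barcodes. Here 3′ ends were counted, so a level is a number of captured transcript ends and was not divided by gene length.

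Endothelial and T cells both carried GIMAP transcripts, but with a different make-up. Summed over the 8 members, the family reached 601 ± 151 CPM (SD, n = 4 libraries) in all endothelial cells and 1742 ± 307 CPM in T cells. Gimap6, whose protein binds the autophagy factor GABARAPL2, made up 50.9% of the family's UMIs in endothelial cells and 30.5% in T cells. Gimap1, needed for the survival of mature lymphocytes, made up 27.3% in endothelial cells and 9.69% in T cells. Gimap3, Gimap4 and Gimap7 made up 18.4%, 14.4% and 8.98% in T cells, but 0.04%, 1.39% and 0% in endothelial cells. Thus Gimap6, Gimap1, Gimap5 and Gimap8 formed most of the repertoire of all endothelial cells together. To these members T cells added Gimap3, Gimap4, Gimap7 and a larger part of Gimap9.

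**Figure D1:**
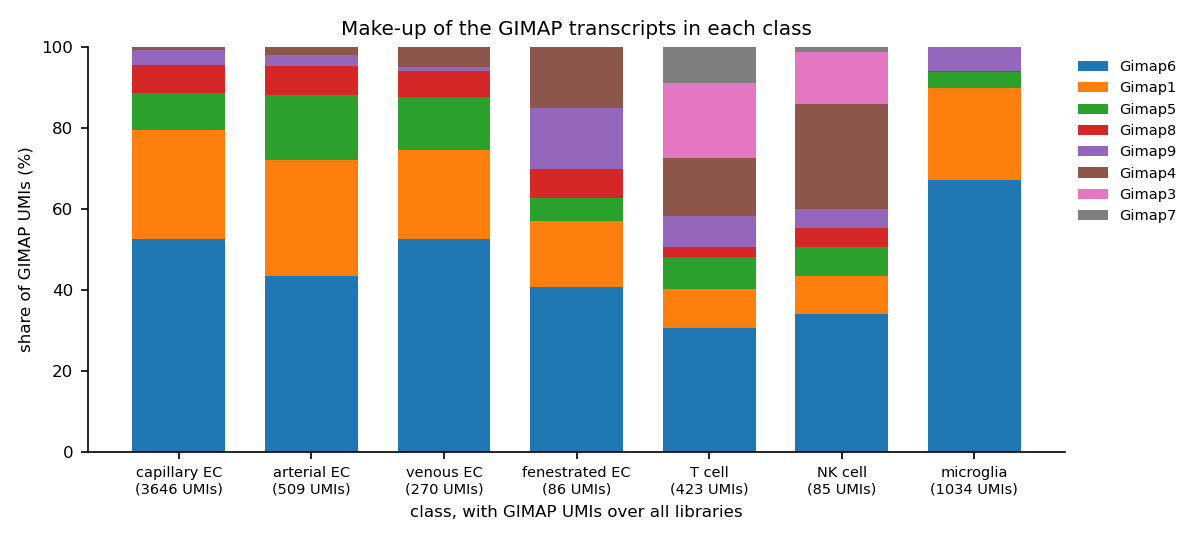
The share of each member among the GIMAP UMIs of a class (%, y axis), with UMIs of all 4 libraries summed, is stacked for 4 endothelial segments, T cells, NK cells and microglia (x axis). Gimap6 is the largest part in all 7 classes, and Gimap3 and Gimap7 appear in T and NK cells.

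The order of the members between endothelial and T cells was read from the library values. Gimap1 was near equal in both, with 164 ± 32.9 CPM in endothelial cells and 171 ± 41.5 CPM in T cells (SD, n = 4), and the library values of both classes overlapped. Gimap8, a large member with several GTP-binding domains, stood at 41.6 ± 5.26 CPM in endothelial cells, and in T cells at 19.98 CPM in CSD 1, 91.1 in CSD 2, 19.6 in HC 1 and 16.9 in HC 2, from 1, 7, 1 and 1 UMIs. Of these T cell values 3 lay below all 4 endothelial ones (38.1 to 49.4 CPM), and the T cell mean of 36.9 CPM fell to 18.8 CPM without CSD 2. Gimap6 stood at 304 ± 103 CPM in endothelial cells and 532 ± 112 CPM in T cells. Its lowest T cell library (380 CPM in CSD 1) lay below its highest endothelial library (405 CPM in CSD 2). Within libraries, T and endothelial cells stood at 380 and 382 CPM in CSD 1 and at 638 and 405 CPM in CSD 2. In HC 1 they stood at 587 and 213 CPM, and in HC 2 at 525 and 218 CPM. Gimap5, a lysosomal protein whose loss causes lymphopenia, had 59.94 ± 13.04 CPM in endothelial cells and 137 ± 58.3 CPM in T cells. All 4 T cell values (79.9 to 203 CPM) lay above all 4 endothelial ones (47.9 to 76.6 CPM). The T cell values of Gimap5 rest on 4, 13, 5 and 12 UMIs in CSD 1, CSD 2, HC 1 and HC 2. The exact Poisson intervals of CSD 1 (21.8 to 204.6 CPM) and HC 1 (31.8 to 228.5 CPM) covered all 4 endothelial values. Those of CSD 2 and HC 2 began above them, at 90.1 and 105 CPM. In CSD 1 and HC 1 this order was thus within counting error.

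Gimap9, Gimap4, Gimap3 and Gimap7 were low or absent in all endothelial cells together and higher in T cells. They were not confined to T cells, since fenestrated endothelial cells also carried Gimap4 and Gimap9, and NK cells Gimap4 and Gimap3 (levels below). Gimap9 stood at 21.9 ± 1.35 CPM in endothelial cells and 134 ± 64.5 CPM in T cells. Gimap4, which modulates apoptosis of mature T cells, stood at 8.57 ± 1.73 CPM in endothelial cells, while T cells held 180 CPM in CSD 1, 208 in CSD 2, 255 in HC 1 and 389 in HC 2. Every T cell library of Gimap4 therefore lay above every endothelial library, of which the highest was 10.1 CPM. Gimap3, a mouse gene that is a close relative of Gimap5, had 320 CPM in T cells of CSD 1, 429 in CSD 2, 294 in HC 1 and 237 in HC 2, against 2 UMIs in all endothelial cells together, both in CSD 1. Endothelial cells held 515 UMIs of Gimap5 beside these 2 of Gimap3. Whether reads of these relatives were counted for one another in either class was not tested. Gimap7, a soluble GTPase that activates other members through dimers, had 99.9 CPM in T cells of CSD 1, 182 in CSD 2, 39.2 in HC 1 and 288 in HC 2. It had 0 of 8493998 UMIs in endothelial cells, where 3 counts would be 0.353 CPM. The T cell values of Gimap7 rest on 5, 14, 2 and 17 UMIs.

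**Figure D2:**
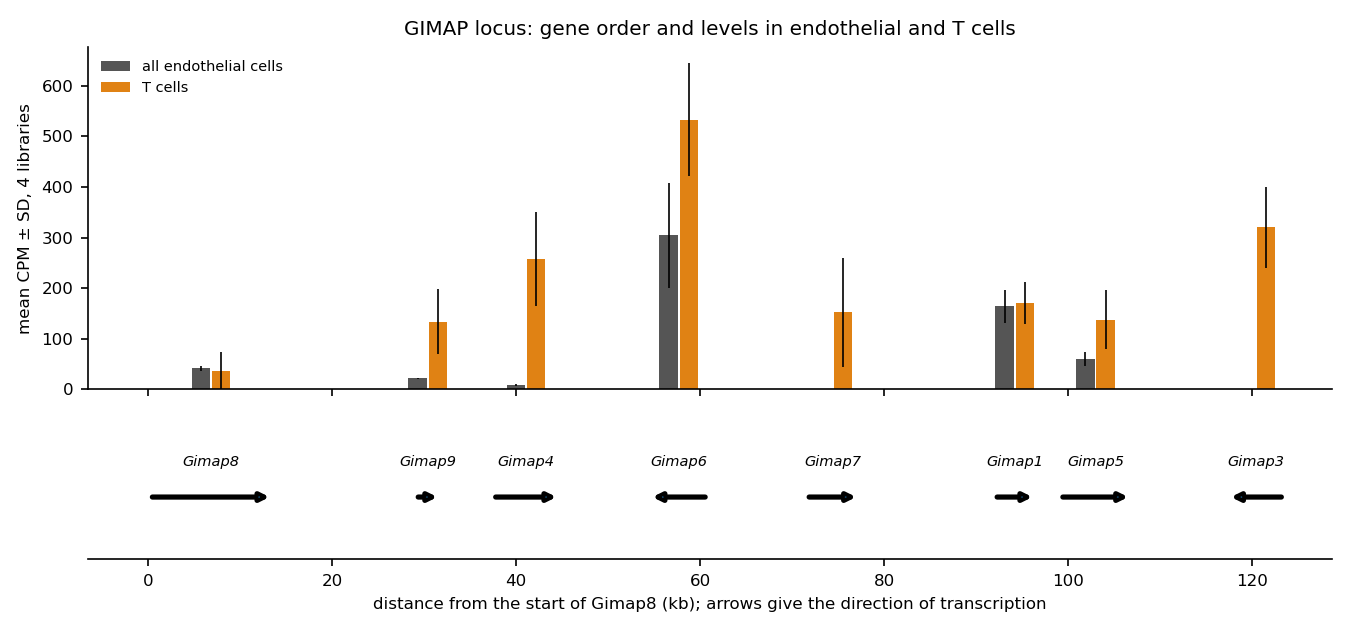
Mean CPM over 4 libraries with SD (upper panel, y axis) is drawn for all endothelial cells and T cells at each gene's place along the locus (x axis, kb from the start of Gimap8), with arrows for the direction of transcription (lower panel). Members near 0 or absent in endothelium (Gimap4, Gimap7 and Gimap3) alternate along the cluster with those that both classes share.

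NK and B cells were few, and their values carry wide counting error. In 20 NK cells (none in HC 1), the family reached 1791 CPM over all libraries (exact Poisson 95% interval 1431 to 2214, counting error only). Gimap6 led with 29 UMIs (611 CPM), followed by Gimap4 with 22 (464 CPM) and Gimap3 with 11 (232 CPM), and Gimap7 had 1 UMI. The NK profile thus shared Gimap3 and Gimap4 with T cells. The 13 T cell markers summed to 1300, 1840 and 1383 CPM in NK cells of CSD 1, CSD 2 and HC 2. In T cells the 9 NK cell markers summed to 1059 to 2095 CPM. The part of such overlap between the 2 gates in the shared members was not tested. In 42 B cells, of which 29 came from HC 2, Gimap6 had 12 UMIs and Gimap1 had 6, and Gimap4, Gimap5 and Gimap9 had 0 of 60922 UMIs. At this depth 3 counts would be 49.2 CPM in B cells, so a lower level of these members was not detectable.

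In microglia, the resident macrophages of the brain, GIMAP transcripts were lower and were mainly Gimap6. Gimap6 stood at 62.6 ± 9.53 CPM and Gimap1 at 21.1 ± 3.27 CPM (SD, n = 4), and Gimap3, Gimap4 and Gimap7 had 0 of 11238648 UMIs. Border-associated macrophages had 128 to 159 CPM of Gimap6 in the CSD libraries and 105 to 181 CPM in the HC libraries, from 1 to 24 UMIs a library. In 24 monocytes all 8 members had 0 of 125384 UMIs, where 3 counts would be 23.9 CPM. Pericytes, the mural cells of capillaries, had 76.5 ± 28.9 CPM of Gimap6 and smooth muscle cells had 32.0 ± 2.30 CPM of the whole family. Pericyte libraries also carried 2150 to 4455 CPM of the 12 endothelial markers, none of them at 0, and the part of these in the Gimap6 level was not tested. In choroid plexus cells the family stood at 4.99 ± 2.13 CPM.

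**Figure D3:**
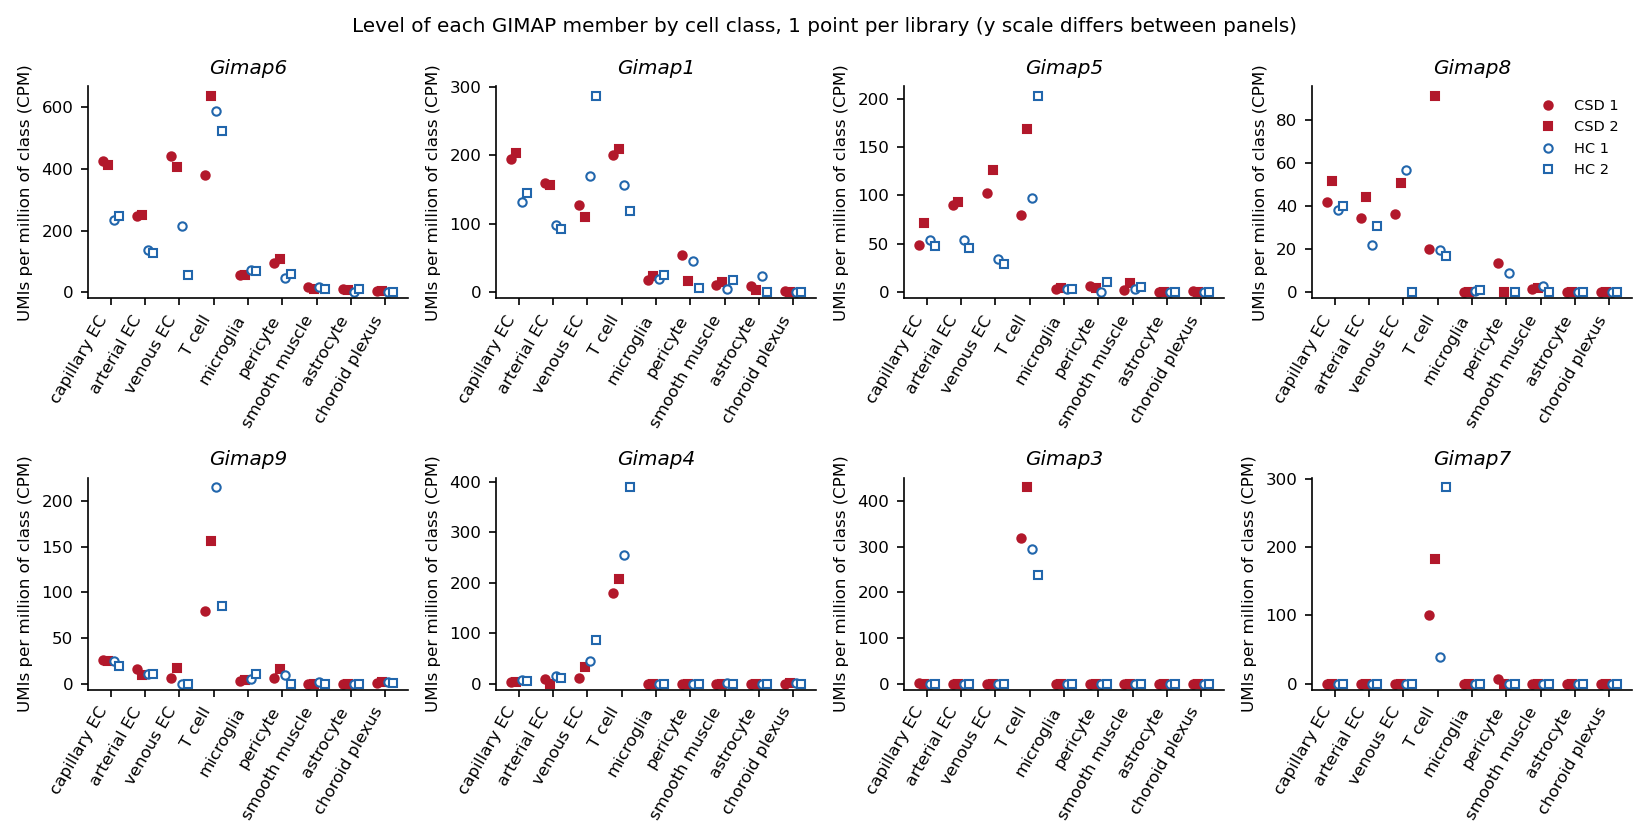
Each panel plots 1 member, with its CPM (y axis, scale differs between panels) in 9 classes (x axis) and 1 point per library, filled red for CSD and open blue for HC. Gimap6, Gimap1 and Gimap5 are high in endothelial segments and T cells, the T cell points of Gimap8 rest on 1 to 7 UMIs, and Gimap3 and Gimap7 are at or near 0 outside T cells.

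Per cell, these levels mean that few cells held a UMI at equal depth. After each cell was thinned to 500 UMIs, which left out no cell, Gimap6 was seen in 16.4% of endothelial cells of CSD 1 (exact Clopper-Pearson 95% interval 14.4 to 18.7%), 17.0% of CSD 2 (14.9 to 19.3%), 10.0% of HC 1 (8.17 to 12.2%) and 10.97% of HC 2 (9.55 to 12.5%). The unthinned shares were 41.2%, 43.2%, 29.9% and 20.2%, at median depths of 1230, 1422, 1524 and 870 UMIs. In choroid plexus cells, which should lack the gene, the thinned share of Gimap6 was 0 to 0.267% (unthinned 1.52 to 4.82% at median depths of 10900 to 25987 UMIs). In astrocytes the thinned share was 0 to 1.04% (unthinned 0 to 1.45% at median depths of 787 to 1198 UMIs). The endothelial shares thus lay above both backgrounds, and both CSD shares lay above both HC shares. In T cells, thinned Gimap6 was found in 24.7% ± 5.74 of cells and Gimap3 in 14.9% ± 4.24 (SD, n = 4), and in microglia Gimap6 was found in 2.94% ± 0.295. The unthinned shares were 52.0 to 94.7% for Gimap6 and 30.9 to 78.9% for Gimap3 in T cells, and 9.31 to 18.6% for Gimap6 in microglia.

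Along the vascular tree, capillary cells held more Gimap6 than arterial cells by CPM. Gimap6 stood at 426 CPM in capillary cells of CSD 1 and 247 CPM in arterial cells of the same library, at 412 and 250 CPM in CSD 2, at 235 and 138 CPM in HC 1, and at 248 and 128 CPM in HC 2. The capillary value was the higher one in 4 of 4 libraries. The share of cells with a Gimap6 UMI did not show this at 500 UMIs a cell. It was 13.9% ± 3.62 in capillary and 13.1% ± 7.93 in arterial cells (SD, n = 4), with ranges of 10.8 to 18.1% and 6.82 to 24.4%. Among cells thinned to 1000 UMIs it was 28.4% ± 8.16 and 16.9% ± 5.76. Arterial libraries also carried 3036 to 6117 CPM of the 9 pericyte markers, against 437 to 802 CPM in capillary ones, and their part in this order was not tested. Per 1000 UMIs of the 12 endothelial markers, Gimap6 was 16.4, 13.7, 8.54 and 8.93 in capillary cells of CSD 1, CSD 2, HC 1 and HC 2. In arterial cells it was 12.9, 11.6, 6.57 and 5.81. Venous cells had 441, 405, 215 and 57.3 CPM of Gimap6 in CSD 1, CSD 2, HC 1 and HC 2, above the capillary value in 1 of 4 libraries, and fenestrated cells had 382 CPM over all libraries (266 to 532, exact Poisson 95% interval). Gimap1 had the same order in 4 of 4 libraries, with 168 ± 35.1 CPM in capillary and 127 ± 36.4 CPM in arterial cells. Gimap5 ran the other way on average, with 55.43 ± 10.99 CPM in capillary and 70.9 ± 24.1 CPM in arterial cells, but the values of HC 1 (53.7 and 54.4 CPM) and HC 2 (47.3 and 46.1 CPM) were close together. Gimap4 was higher in venous than in capillary cells of every library, with 12.1, 33.8, 45.2 and 85.9 CPM in CSD 1, CSD 2, HC 1 and HC 2 against 4.06 to 6.71 CPM, though from 2 to 4 venous UMIs a library. In the 37 fenestrated cells, the leaky endothelium of choroid plexus and circumventricular organs, Gimap4 and Gimap9 had 13 UMIs each, or 142 CPM (75.6 to 243, exact Poisson 95% interval). Each therefore made up 15.1% of the GIMAP UMIs there, against 0.77% and 3.73% in capillary cells. T cell markers were at 0 in fenestrated and venous cells of all libraries.

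CSD and HC were then compared within classes, on UMI counts summed per library. Since this contrast was known when the family was picked, the fitted values below describe these 4 libraries. Gimap6 stood at 382 CPM in endothelial cells of CSD 1 and 405 CPM in CSD 2, against 213 CPM in HC 1 and 218 CPM in HC 2. The difference was larger than the spread between libraries of a condition, at 394 ± 16.5 and 215 ± 3.98 CPM (SD, n = 2). The fitted log2 fold change was 0.91 (SE 0.14), and it did not pass the threshold over all genes (edgeR quasi-likelihood test, adjusted p = 0.131). Of 6 members that passed the count filter in all endothelial cells, 0 were called at an adjusted p below 0.05 by edgeR, where 0.0487% of the 10263 genes tested were. By edgeR's unadjusted p, 744 genes (7.25%) lay below 0.05, with Gimap6, Gimap1 and Gimap5 among them. DESeq2, which gave Gimap9 and Gimap4 no adjusted p, called Gimap6 alone of the members (adjusted p = 0.00062), and it called 50 genes in all (0.487%). Gimap3 and Gimap7 did not pass the filter in endothelial cells.

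The other endothelial members differed less. Gimap1 stood at 185, 199, 131 and 143 CPM in CSD 1, CSD 2, HC 1 and HC 2 (log2 fold change 0.53, SE 0.14). Gimap5 stood at 63.7, 76.6, 51.5 and 47.9 CPM (log2 fold change 0.54, SE 0.16). For both members the 2 CSD values lay above the 2 HC values. Gimap8 stood at 39.9 and 49.4 against 38.1 and 38.8 CPM, so its CSD 1 value lay next to both HC values. Gimap9 overlapped between conditions at 20.2 to 23.3 CPM, and Gimap4 was lower in CSD (7.79 and 6.50 against 9.91 and 10.1 CPM, log2 fold change -0.44, SE 0.36). In all, both CSD libraries lay above both HC libraries for 4 of the 6 members, as they did for 14.3% of all genes tested. The median log2 fold change was 0.40 over the 6 members and -0.01 over all genes.

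Signals of cell handling and other cells were read beside these values. The 12 immediate-early genes, which respond to handling as well as to activity, summed to 16430 and 19130 CPM in endothelial cells of CSD 1 and CSD 2 and to 12990 and 13970 CPM in HC 1 and HC 2, with none at 0 in any library. They were thus higher in both CSD libraries, as Gimap6 was, and their part in the Gimap6 difference was not tested. Median depth (870 to 1524 UMIs) and the median share of mitochondrial UMIs (6.12 to 8.59%) of the kept cells did not order the libraries by condition. Over all classes, the mitochondrial cut kept 4079 of 6476 barcodes in CSD 1 and 2553 of 7761 in CSD 2. In HC 1 it kept 2849 of 4233, and in HC 2 4934 of 8773. Kept cells held 54.6, 32.6, 56.8 and 51.8% of the UMIs of CSD 1, CSD 2, HC 1 and HC 2. The part of this lower yield of CSD 2 in the differences was not tested. Gimap6 per 1000 UMIs of the 12 endothelial markers was 16.1, 14.1, 8.17 and 8.17 in CSD 1, CSD 2, HC 1 and HC 2. Without endothelial cells that held a UMI of any T, NK or B cell marker, the log2 fold change of Gimap6 was 0.92 (adjusted p = 0.0593 by edgeR). These markers include Ebf1, which endothelial cells express at 332 to 413 CPM, and with Ebf1 left off the list, a choice made after seeing the data, it was 0.93 (adjusted p = 0.145 by edgeR).

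In capillary cells, the largest segment, Gimap6 stood at 426 and 412 CPM in CSD and 235 and 248 CPM in HC. Its log2 fold change was 0.85 (SE 0.15, edgeR adjusted p = 0.0543). Gimap1 stood at 194 and 203 against 132 and 145 CPM (log2 fold change 0.57, SE 0.15, adjusted p = 0.21), and here too the conditions did not overlap. Gimap5 did overlap, at 49.3 and 71.4 against 53.7 and 47.3 CPM (log2 fold change 0.33, SE 0.20), and its fold change was 0.05 without CSD 2 and 0.54 without CSD 1. Of the 5 capillary members tested, 0 were called by edgeR, against 0.214% of 9362 genes, and both CSD libraries lay above both HC libraries for 3, as for 15.9% of all genes. By edgeR 2 of them, Gimap6 and Gimap1, had an unadjusted p below 0.05, as 8.47% of all genes had. The Gimap6 call depended on the test and the cells, since the adjusted p was 0.00547 by DESeq2 (0.363% of genes called), 0.018 with classes from graph clusters (0.531%) and 0.0002 with no filter on low counts (1.17%). Without CSD 1 edgeR called Gimap6 (adjusted p = 0.000133) and Gimap1 (log2 fold change 0.59, adjusted p = 0.0234), but 4.67% of genes were called too, and without CSD 2 it called Gimap6 (adjusted p = 0.000825) and 1.32% of genes. In both fits the CSD side was 1 library, assumed to vary like the HC pair. Without HC 1 or without HC 2, edgeR called no capillary member. The log2 fold change of Gimap6 lay between 0.81 and 0.90 without any 1 library.

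**Figure D4:**
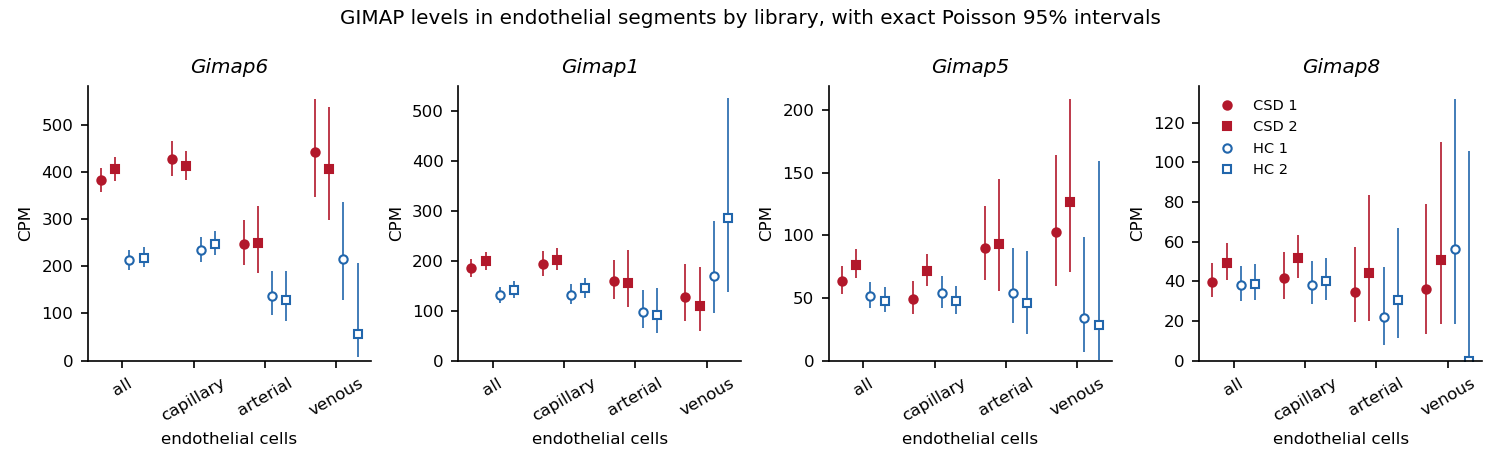
CPM (y axis) of Gimap6, Gimap1, Gimap5 and Gimap8 in all, capillary, arterial and venous endothelial cells (x axis), 1 point per library with its exact Poisson 95% interval for counting error, filled red for CSD and open blue for HC. Both CSD points of Gimap6 lie above both HC points in each segment, while the venous Gimap1 points have the opposite order.

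Arterial cells gave similar differences from fewer UMIs. Gimap6 stood at 247 and 250 CPM in CSD and 138 and 128 CPM in HC (log2 fold change 0.88, SE 0.24), Gimap1 at 159 and 157 against 98.0 and 92.3 CPM, and Gimap5 at 90.1 and 93.0 against 54.4 and 46.1 CPM. All 3 members tested thus stood higher in both CSD libraries, as 17.1% of the genes did, and 0 were called by edgeR (Gimap6 adjusted p = 0.509) against 0.0242% of 4139 genes. All 3 had an unadjusted p below 0.05 by edgeR, as 5.36% of the genes had, and DESeq2 called 0 of the 3. The log2 fold change of Gimap6 was 0.83 to 0.96 over the 4 fits that each left out 1 library. The CSD effect on Gimap6 did not differ detectably between arterial and capillary cells (log2 difference 0.07, SE 0.25, edgeR adjusted p = 1), where 0.157% of 8898 genes were called.

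Venous cells, which carry adhesion molecules for leukocyte entry, had a lower Gimap1 in both CSD libraries, unlike capillary and arterial cells, but this was not called. Gimap6 stood at 441 and 405 CPM in CSD and at 215 and 57.3 CPM in HC 1 and HC 2, the last from 2 UMIs (log2 fold change 1.38, SE 0.43). Gimap5 stood at 103 and 127 against 33.9 and 28.6 CPM, from 17, 15, 3 and 1 UMIs. Gimap1 had the opposite order, at 127 and 110 CPM in CSD and 170 and 286 CPM in HC, from 21, 13, 15 and 10 UMIs (log2 fold change -0.82, SE 0.43). Of the 3 venous members tested, 0 were called by edgeR (adjusted p from 0.394 to 0.58), against 0.0532% of 1880 genes, and 2 had both CSD libraries above both HC libraries, as 19.3% of genes did. By edgeR 2 had an unadjusted p below 0.05, as 8.83% of genes had, and DESeq2, which called 0.372% of genes, gave none of the 3 an adjusted p. Without HC 1 the log2 fold change of Gimap6 was 2.92, and without HC 2 it was 0.97. The difference of the CSD effect between venous and capillary cells had an unadjusted p of 0.00776 for Gimap1 (log2 difference -1.23, SE 0.46, adjusted p = 0.929 over all genes by edgeR), where 0.122% of 8223 genes were called. The venous gate held 34 and 42 cells in CSD and 17 and 19 in HC, and 13, 19, 25 and 13 in CSD 1, CSD 2, HC 1 and HC 2 when markers that inflammation induces were left out of the gate. With that reduced gate, only 1 member passed the count filter in venous cells.

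In T cells the conditions overlapped for Gimap5, Gimap6, Gimap7 and Gimap9. Gimap6 stood at 380 CPM in CSD 1 and 638 in CSD 2, against 587 in HC 1 and 525 in HC 2 (log2 fold change -0.03, SE 0.36). Gimap3 was higher in both CSD libraries (320 and 429 against 294 and 237 CPM, log2 fold change 0.58, SE 0.42) and Gimap4 lower (180 and 208 against 255 and 389 CPM, log2 fold change -0.66, SE 0.47). Gimap1 was also higher in both CSD libraries (200 and 208 against 157 and 119 CPM, log2 fold change 0.63, SE 0.60). None of these differences was large against its error, and the share of all T cell genes that separate in this way was not counted. Gimap8, which did not pass the count filter, also stood higher in both CSD libraries (19.98 and 91.1 against 19.6 and 16.9 CPM). Its CSD 1, HC 1 and HC 2 values rest on 1 UMI each. The 12 endothelial markers summed to 1478 and 1848 CPM in T cells of CSD 1 and CSD 2 and to 901 and 846 CPM in those of HC 1 and HC 2, with 2 to 7 of them at 0, and their part in the T cell differences was not tested. Of the 5 members tested in T cells (Gimap1, Gimap3, Gimap4, Gimap6 and Gimap7), 0 were called by edgeR (adjusted p = 0.999 for each) or DESeq2 and 0 had an unadjusted p below 0.05 by edgeR (4.05% of genes had one). Of the 692 genes tested in T cells, 0% were called by edgeR and 0% by DESeq2. With 16 to 42 T cells a library, differences of this size were not detectable.

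Microglia had the opposite order of Gimap6. It stood at 54.7 and 54.2 CPM in CSD and at 71.7 and 70.0 CPM in HC (log2 fold change -0.34, SE 0.21, edgeR adjusted p = 1). The conditions did not overlap, but the share of all microglial genes that separate in this way was not counted. The 12 endothelial markers were also lower in the CSD microglia, at 189 and 138 CPM against 221 and 465 CPM with none at 0, and their part in this difference was not tested. Gimap9 stood at 3.05 and 4.06 against 5.54 and 10.5 CPM, and Gimap1 overlapped at 17.4 and 23.0 against 19.4 and 24.6 CPM. Of the 3 members tested, 0 were called by edgeR or DESeq2 and 0 had an unadjusted p below 0.05 by edgeR (1.41% of genes had one). Of the 10055 genes tested in microglia, 0% were called by edgeR and 0.00995% by DESeq2. The difference of the Gimap6 effect between microglia and endothelial cells was -1.26 on the log2 scale (SE 0.33, unadjusted p = 0.0018, adjusted p = 0.855 over all genes by edgeR). In pericytes Gimap6 followed endothelial cells, with 94.2 and 107 CPM in CSD and 45.0 and 59.9 CPM in HC from 14, 27, 5 and 11 UMIs (log2 fold change 0.92, SE 0.43, edgeR adjusted p = 0.993, where 0% of 3145 genes were called). The endothelial markers summed to 4455, 2608, 2150 and 2272 CPM in the pericytes of CSD 1, CSD 2, HC 1 and HC 2. Their part in the pericyte difference was not tested. Choroid plexus cells, which should lack the gene, also held more Gimap6 in both CSD libraries. It stood at 3.87 and 2.20 CPM in CSD and 1.63 and 1.62 CPM in HC, from 30, 5, 14 and 15 UMIs. The log2 fold change there was 1.003 (SE 0.44, unadjusted p = 0.0367, adjusted p = 0.9995 by edgeR). The source of these UMIs was not tested.

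**Figure D5:**
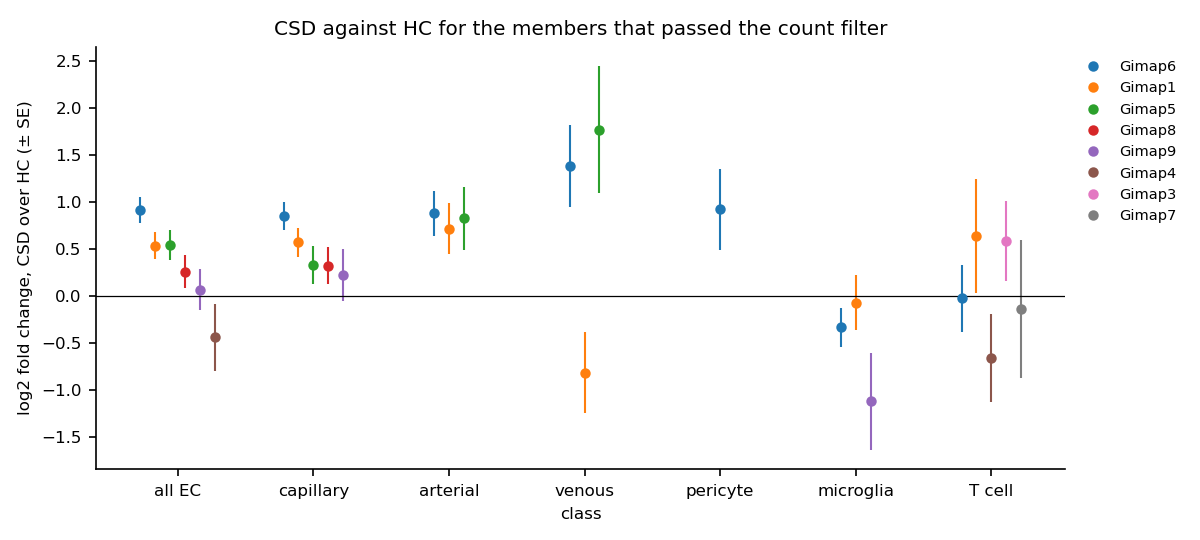
Log2 fold change of CSD over HC with its SE (y axis) for the members that passed the count filter in 7 classes (x axis). Among these 7 classes, Gimap6 lies above 0 in endothelial segments and pericytes, near 0 in T cells and below 0 in microglia. Choroid plexus cells, where its log2 fold change was also above 0, are not among them.

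Genes around and related to the family were read in the same fits. Of 32 other counted genes within 500 kb of the cluster, 12 were tested in all endothelial cells and 0 were called, with a median log2 fold change of -0.07. Of 13 genes whose proteins are known to bind GIMAP proteins or act with them (the GABARAP and LC3 autophagy proteins, BCL2 relatives and GSK3B), 13 were tested and 0 were called, with a median of 0.04. Among them the anti-apoptotic Bcl2 had 28.9 and 34.2 CPM in CSD and 21.3 and 13.6 CPM in HC (log2 fold change 0.89, SE 0.26, edgeR adjusted p = 0.446), and Mcl1 had 703 and 675 against 527 and 464 CPM (log2 fold change 0.52, SE 0.15, adjusted p = 0.446). Gabarapl2, the partner of Gimap6, overlapped at 335 and 312 against 304 and 368 CPM. Of 12 other immunity-related GTPases tested (interferon-induced guanylate-binding proteins and IRG proteins), 0 were called and 2 had a positive log2 fold change, with a median of -0.24, against 0.40 for the GIMAP members. By edgeR's unadjusted p, 0 neighbours, 3 binding partners and 0 of these GTPases lay below 0.05 in all endothelial cells, as 7.25% of all 10263 genes tested did. Of all genes tested there, 0.0487% were called by edgeR and 0.487% by DESeq2, which called 0 genes of the 3 lists.

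The genes most like the leading members across 12 classes were found by Pearson's r of mean log2(CPM + 10), as a description over points that share libraries and depth, among 7838 genes. For Gimap6 they were Prkch (r = 0.968), Rin3 (0.946), Klf13 (0.942), AW112010 (0.941) and Srgn (0.939). For Gimap1 they were Prkch (0.983), Gch1 (0.974), Rnf125 (0.962), Pde2a (0.961) and the guanylate-binding protein gene Gbp4 (0.945). Prkch, a protein kinase C gene, had 129 CPM in capillary cells and 98.5 CPM in T cells, against 20.1 CPM in microglia and 16.7 CPM in pericytes. For Gimap3 the closest were Eomes, Cd8b1, Cd8a, Trbc2 and Gzmk (r = 1.0 each), all T cell or cytotoxic genes. Gimap3 was at or near 0 in every class compared but T cells. Any gene confined to T cells therefore reaches such an r, and the order of these genes carries no information. NK cells were not among the 12 classes.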

How the data were processed

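Single-cell RNA libraries (10x 3′ chemistry) were counted by the authors with Cell Ranger against GRCm38 (version 4.0 per the submitters' processing notes, 3.1.0 in the matrix headers, and a later one in the paper). The deposited values are raw UMI counts per gene and barcode, for 4 libraries with 6794880 barcodes each. Barcodes with at least 500 UMIs, at least 250 genes and at most 25% mitochondrial UMIs were kept. Cells were assigned to 17 classes by the share of UMIs from fixed markers (at least 3 markers, top score 1.5 times the next; endothelial segments at least 2 markers). The 715 cells with mixed scores and 226 with none, which may include doublets, were left out, and no doublet caller was run. The gates were set after marker counts had been seen.

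UMIs were summed per class and library. Levels are CPM of the class total, with exact Poisson 95% intervals, or the level that 3 counts would give where a sum was 0. Sums of 13 classes with at least 10 cells in every library were compared with edgeR 4.0.16 in R 4.3.3 (filterByExpr, TMM, quasi-likelihood test, two-sided, Benjamini-Hochberg over all genes tested, threshold 0.05). Differences of effect between classes were tested with the library as a block. The fits were run on data simulated from the capillary and microglial sums, with changes placed only in well-counted genes. Arterial, venous and T cell sums were not simulated, so these runs do not cover members with few UMIs there. The alternatives were DESeq2 1.42.0, other scaling, no count filter, stricter cell filters, graph clusters (scanpy 1.11.5), each library left out, a replicate block, and endothelial cells without lymphocyte markers. Labels give no shared batch for equal replicate numbers, and with 2 pairs they were not treated as pairs. Libraries pool mice, so p-values measure the spread between pools. Intervals and floors cover counting error only.

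The members and lists were chosen with earlier results of these data known. Named genes were the 8 members in every class, genes within 500 kb of them where called, 2 fixed lists (13 binding partners and 17 related GTPases), and the 5 genes most like the 2 highest members of endothelial and of T cells.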

Additional observations from a re-analysis of the deposited data

Results flagged for a closer look

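The CSD effect was compared between classes of the same 4 libraries in 12 differences, for members that passed the count filter in both classes. In the edgeR fit 5 had an unadjusted p below 0.05, and none of the 12 passed after adjustment over all genes. Of all genes, 475 of 8898 had such a p for arterial and 319 of 8223 for venous against capillary cells. Against endothelial cells, 390 of 11433 had one for microglia and 190 of 9658 for T cells. Gimap8 in microglia, at 3 UMIs, was outside the 12 (log2 difference -4.06, SE 1.66, unadjusted p = 0.0282 by edgeR). The effect of Gimap6 in microglia was lower than in endothelial cells by a log2 difference of -1.26 (SE 0.33, edgeR adjusted p = 0.855), and in T cells by -0.88 (SE 0.39, edgeR adjusted p = 1; -0.55 without CSD 1 and -1.46 without CSD 2). That of Gimap9 was lower in microglia than in endothelial cells by -1.18 (SE 0.52, edgeR adjusted p = 1; -0.51 without HC 2 and -1.75 without HC 1). In venous against capillary cells the difference was -1.23 for Gimap1 (SE 0.46, edgeR adjusted p = 0.929) and 1.70 for Gimap5 (SE 0.79, edgeR adjusted p = 1). The comparisons with microglia and T cells were added after the data had been seen. With 2 libraries a condition, no sample could be judged to stand apart from its group in its levels. CSD 2 had the lowest share of UMIs in kept cells (32.6%, against 51.8 to 56.8% in the other libraries).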

How the results depend on the processing

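In the main edgeR fits (all 4 libraries, count filter, full marker gates and no replicate block), no member was called. In capillary cells Gimap6 passed with DESeq2 (log2 fold change 0.85), with no filter on low counts (0.87) and with graph clusters (0.88). It also passed with segment gates without inducible markers (0.86, 0.367% of genes called, added after seeing the data). It did not pass by edgeR with other scaling, with cells of at least 1000 UMIs or with either exclusion of cells holding lymphocyte markers. Without HC 1 or without HC 2 it did not pass either, though it passed without CSD 1 and without CSD 2. Its log2 fold change was 0.81 to 0.90 when 1 library was left out. Gimap6 passed in all endothelial cells with DESeq2 (0.93). The edgeR fits of these cells gave 0.88 to 0.95 with 1 library left out. With graph clusters Gimap6 passed in arterial cells (1.11, 0.325% of genes called) and venous cells (1.58, 0.283%). For the gated venous cells, edgeR gave 0.97 to 2.92 with 1 library left out. With the replicate number as a block, capillary Gimap6 (0.85, adjusted p = 0.0381, 0.406% of genes called) and venous Gimap6 (1.42, adjusted p = 0.0311, 1.65%) also passed by edgeR, but same-numbered libraries correlated at only 0.02 and 0.12 in their deviations from the condition means, and the numbers share no stated batch. The T cell value of Gimap6, -0.03, changed sign with no filter (0.0035) and with cells of at least 1000 UMIs (0.038), and ran from -0.56 to 0.36 with 1 library left out (above 0 without CSD 1 or HC 1). The arterial against capillary difference of 0.07 turned to -0.0069 with reduced gates and ran from -0.0054 to 0.14. Other signs turned without 1 library for Gimap9 in all endothelial cells (-0.037 to 0.21), Gimap7 in T cells (-0.90 to 0.25), Gimap1 in microglia (-0.37 to 0.19) and, for T against endothelial cells, Gimap1 (-0.037 to 0.39; -0.39 with clusters) and Gimap4 (-0.58 to 0.23; 0.087 with cells of at least 1000 UMIs and 0.018 with clusters). Thinning to 1000 UMIs and leaving out cells below that depth (2806 of 5007 cells kept) moved the endothelial Gimap6 share from 13.6% to 25.7%. On those 2806 cells alone it was 15.3% at 500 and 26.2% at 1000 UMIs (added after seeing the data). The family's endothelial level moved by less than its SD with deeper cells, clusters, marker exclusion or free RNA subtracted. That SD of 151 CPM is a wide measure, since it spans both conditions (730 ± 41.3 CPM in CSD and 472 ± 8.10 CPM in HC, SD, n = 2). The planned exclusion of endothelial cells with any lymphocyte marker removed 28.6 to 45.0% of them, since Ebf1 is on the list, and left no arterial member tested. The complexity filter removed no endothelial or T cell and so gave no other value there. The causes of these changes were not tested. Over all settings the number of genes called ran from 0 to 51 in all endothelial cells (5 in the fit described) and from 7 to 464 in capillary cells (20). Few T and venous cells limit the depth of those classes.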

Other observations

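Barcodes with at most 100 UMIs, which hold mostly free RNA, also carried GIMAP transcripts. Gimap6 stood there at 23.0 CPM in CSD 1, 30.2 in CSD 2, 11.9 in HC 1 and 23.3 in HC 2, from 49 to 106 UMIs a library. The conditions overlapped in these barcodes. Gimap1 stood at 8.04 to 18.6 CPM, and Gimap3, a T cell member, had 2 UMIs over the 4 libraries.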
